A study of Neurospora crassa with 3 samples.

Results

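The comparison described here sets set-2 H3G34R against H3G34R alone in the filamentous fungus Neurospora crassa. Its members are 4 of the 6 RNA-seq libraries of the study, chosen by their labels, with 2 libraries a side. Set-2 H3G34R (strain N6777, both libraries) carries a glycine-to-arginine change at position 34 of histone H3, and the series' design text gives it a deletion of set-2 as well. H3G34R (strains N5247 and N5248, 1 library each) carries the same histone change and no set-2 label. The study's other genotype, set-2 ash1(Y888F) (strains N6266 and N6267), shares the set-2 label and enters only the estimate of the spread and a few side-by-side values. All cultures are labelled as mycelia from germinated conidia, shaken at 32 °C for 18 h in Vogel's liquid medium, and poly-A RNA was sequenced in stranded libraries.

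SET-2 and ASH1 are the enzymes that methylate lysine 36 of histone H3 in this fungus. SET-2 and its relatives travel with the transcribing RNA polymerase and mark the bodies of active genes, and ASH1 marks poorly transcribed genes. The mutated glycine sits beside that lysine, and in animal cells changes at it are known to hinder methylation of the lysine on the same H3 tail. The question the design poses is how the transcriptome of a strain that already carries the histone change differs when the set-2 label is added.

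The 2 set-2 H3G34R libraries held 9.41 and 8.62 M sense reads in genes (M, 1000000 reads), and the 2 H3G34R libraries held 9.41 and 9.83 M. Unmapped reads were 1.31% and 1.61% in set-2 H3G34R, against 3.03% and 3.04% in H3G34R, and reads at several places were 5.32% and 4.09%, against 3.54% and 3.55%. These shares separate the genotypes as the labels do, and their part in the results below was not tested. Between the 2 libraries of a genotype log2(CPM + 1) correlated over 8561 genes with r = 0.992 in set-2 H3G34R and 0.991 in H3G34R, and between the genotypes with r from 0.823 to 0.833. CPM are sense reads per 1000000 on the TMM-scaled library size and are not per gene length, so levels are compared within a gene only. N6777 is a single strain, and the labels do not say whether its libraries are of separate cultures. The p-values therefore reflect the spread between libraries, which may be technical, and strain and genotype cannot be told apart.

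The genes named in the labels were read first. Sense reads of set-2 (NCU00269) numbered 299 and 269 in set-2 H3G34R, against 322 and 252 in H3G34R, so the groups overlapped (0.13 on the log2 scale, edgeR adjusted p = 0.562). The set-2 ash1(Y888F) libraries, which share the set-2 label, held 171 and 123 reads of the gene. These were 23.2 and 18.3 CPM, against 31.0 and 24.1 CPM in H3G34R. The log2 value of set-2 over wild type was 1.35 in set-2 H3G34R and 1.34 in H3G34R in the authors' deposited tables. Reads at this level go against a deletion of the whole gene, and counts per gene cannot place them along it. Genotype names and all directions below are those of the labels. The gene of ASH1 (NCU01932), which the reference names set-3, was at 71.6 and 71.5 CPM in set-2 H3G34R, against 149 and 148 CPM in H3G34R, a log2 difference of −1.05 (SE 0.09, edgeR adjusted p = 2.12e-04). The histone H3 gene hH3 was at 1285 and 1217 CPM, against 1711 and 1779 CPM (−0.48, edgeR adjusted p = 0.0155), and leaving out any 1 of the 4 libraries compared ended this call (adjusted p from 0.0658 to 0.105).

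Adding the set-2 label went with a shift across most of the transcriptome. It was close to even in number of genes each way and, by edgeR's estimates, uneven in size. Of 8561 tested genes, 61.7% were called, 30.7% higher and 31.1% lower in set-2 H3G34R (edgeR's quasi-likelihood test with all 6 libraries in 1 fit, two-sided, Benjamini-Hochberg adjusted p under 0.05). With at least a 2-fold change there were 1494 higher genes (17.5%) and 1482 lower genes (17.3%), and with at least 4-fold 596 (6.96%) and 601 (7.02%). Beyond that the directions parted. At least 16-fold changes were called for 114 higher and 219 lower genes, and at least 64-fold changes for 25 higher and 89 lower genes. These sizes are edgeR estimates, and for genes near 0 in 1 genotype they can exceed what the reads bound. NCU07106, with 0 reads in set-2 H3G34R and 23 and 25 in H3G34R, counts as at least 64-fold lower (log2 −7.38). With a floor of 3 reads per library it is at least 7.21-fold lower. How much of the parting rests on such genes was not tested. Against a minimum of 1.5-fold, 36% of genes passed. The 2 and 2 libraries did not overlap for 42.3% of genes in the higher and 43.6% in the lower direction. Leaving out any 1 of the 6 libraries in turn, 3315 genes kept their call and direction each time, 1627 higher and 1688 lower.

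**Figure D1:**
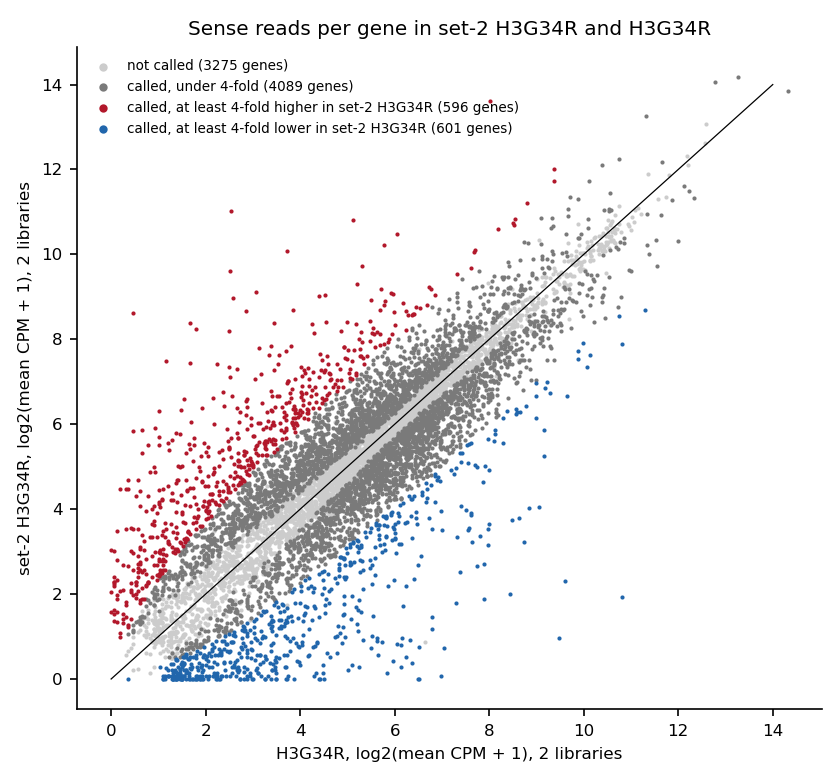
Each point is 1 of 8561 tested genes, with the mean level of the 2 set-2 H3G34R libraries on the vertical axis and of the 2 H3G34R libraries on the horizontal axis, both as log2(CPM + 1). Genes called at least 4-fold higher (596, red) and lower (601, blue) in set-2 H3G34R lie on both sides of the diagonal, and the blue points reach down to 0 on the vertical axis.

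Where in the range of levels the calls fell also differed by direction. In the lowest decile of mean CPM (0.384 to 3.54 CPM over 6 libraries) 19.6% of genes were higher and 39.0% lower in set-2 H3G34R, and 28.5% were at least 4-fold lower, against 9.68% at least 4-fold higher. In the highest decile 27.9% were higher and 30.1% lower, and 4.91% and 3.15% passed 4-fold. From the third decile upward the at least 4-fold higher genes were more frequent than the at least 4-fold lower ones in each decile. Genes in the lowest decile passed the filter on low counts with few reads in any library, so a gene had to be well above 0 in at least 1 genotype to be tested there. The compared values themselves enter the mean that sets the decile. A gene high only in H3G34R thus falls in a lower decile than one equally high in both set-2 genotypes. How far this sets the difference by direction was not tested, and no conclusion is drawn from it.

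The deposited comparisons with wild type set both genotypes against the same libraries. The wild-type libraries are not used here, both tables rest on the same ones, and the submitters name other series as their source. Of 9577 genes in the authors' deposited tables, 51.3% differed between set-2 H3G34R and wild type, 2384 higher and 2525 lower, against 64.5% of 9596 genes between H3G34R and wild type, 3223 higher and 2963 lower. The median absolute log2 fold change in the authors' deposited tables was 0.64 for set-2 H3G34R and 0.94 for H3G34R. At least 4-fold changes in the authors' deposited tables took 9.66% of genes for set-2 H3G34R (394 higher, 531 lower) and 19.1% for H3G34R (1015 higher, 821 lower). The genotype with the added label thus stood nearer to wild type by these counts, and no test of the difference was made.

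The same tables can be read for the genes that moved most between the genotypes. For the 580 genes at least 4-fold higher in set-2 H3G34R and listed there, the median log2 over wild type in the authors' deposited tables was 0.40 in set-2 H3G34R (quartiles −0.49 and 1.36) and −1.98 in H3G34R (quartiles −3.15 and −1.03). For the at least 4-fold lower genes it was −0.05 in set-2 H3G34R (593 genes, quartiles −0.97 and 0.95) and 2.80 in H3G34R (597 genes, quartiles 1.56 and 4.51), against 0.03 and 0.06 over all tested genes. The choice of these genes fixes which genotype has the higher median. The choice also bears on where the 2 medians lie, since the deposited values are of the same 2 genotypes. Over all genes H3G34R had the larger median absolute change from wild type. In both classes the median of set-2 H3G34R lay within 0.40 of wild type, and no conclusion is drawn from this. Deposited values are smaller for genes with few reads. For 400 genes called at least 4-fold apart and under 1 CPM in the lower genotype, the difference between the 2 values in the authors' deposited tables had a median size of 3.03 on the log2 scale, against 4.35 by edgeR, and for the other 773 genes it was 2.44, against 2.598 by edgeR. The deposited values printed below for genes near 0 in 1 genotype therefore do not add up to the edgeR differences. Genes with antisense reads can differ too. NCU02963 differed by 0.18 on sense reads and −0.47 with both strands. In the authors' deposited tables it stood at −0.34 in set-2 H3G34R and 0.26 in H3G34R. NCU05311 differed by 0.47 on sense reads, and stood there at −0.08 and −2.46. Which strand column the deposited values rest on was not tested, so they may not be of sense reads alone.

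The genes with known symbols and the largest falls included 4 serine-threonine kinase genes on linkage group III and 2 genes of meiotic silencing. Sense reads of stk-35 numbered 0 and 1 in set-2 H3G34R, against 1264 and 1341 in H3G34R. Its neighbour in the same stretch of the chromosome, stk-56, was at 0.808 and 0.561 CPM, against 85.6 and 94.4 CPM. The kinase gene stk-54 was at 0.404 and 1.35 CPM in set-2 H3G34R and 35.4 and 42.8 CPM in H3G34R, and stk-36 at 4.85 and 6.17 CPM in set-2 H3G34R and 227 and 247 CPM in H3G34R. The log2 differences were −6.999 for stk-56, −5.49 for stk-54 and −5.43 for stk-36 (edgeR adjusted p from 7.11e-06 to 9.57e-05 for the 3 genes). The 4 genes were chosen by their change between these libraries, so that the genotypes did not overlap follows largely from the choice. For stk-35 the ratio of summed reads, H3G34R over set-2 H3G34R, was 2354 with a 95% interval of 422 to 92997 that covers counting error only.

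Meiotic silencing in Neurospora shuts down DNA that lacks a partner during meiosis, and sms-2 (an Argonaute) and sad-2 (which places the silencing RNA polymerase at the nuclear edge) belong to it. The gene sms-2 was at 14.4 and 16.5 CPM in set-2 H3G34R, against 509 and 555 CPM in H3G34R (−5.11, SE 0.15, edgeR adjusted p = 7.11e-06). The gene sad-2 was at 1.01 and 1.01 CPM, against 26.8 and 26.5 CPM (−4.70, SE 0.23, edgeR adjusted p = 3.68e-05). Both genes were low in both set-2 H3G34R libraries and high in both H3G34R libraries, which follows largely from their choice by fold change. Relative to wild type, in the authors' deposited tables, sms-2 stood at 4.08 in set-2 H3G34R and 8.04 in H3G34R, and sad-2 at 0.95 in set-2 H3G34R and 3.95 in H3G34R.

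Other large falls were in phosphate uptake, in alternative respiration and in a DNA-damage enzyme gene. The phosphate transporter genes pho-4 and pho-5 fell, with log2 differences of −6.45 and −6.43 (edgeR adjusted p = 2.28e-04 and 1.98e-05). The gene ndi-1, an alternative NADH dehydrogenase that bypasses complex I, was at 2.62 and 4.49 CPM in set-2 H3G34R, against 78.6 and 70.5 CPM in H3G34R (−4.40, edgeR adjusted p = 1.23e-04). The alternative oxidase gene aod-1 was at 10.8 and 14.9 CPM, against 392 and 399.6 CPM. Both ndi-1 and aod-1 lay on opposite sides of wild type in the 2 genotypes in the authors' deposited tables, at −1.92 and −3.47 in set-2 H3G34R and at 2.51 and 1.56 in H3G34R. The gene parp, which encodes poly(ADP-ribose) polymerase, was at 9.99 and 11.2 CPM in set-2 H3G34R, against 269.6 and 228 CPM in H3G34R (−4.55, edgeR adjusted p = 9.78e-06). The last of the 12, pmg, was at 4.54 and 4.94 CPM, against 176 and 158 CPM (−5.13, edgeR adjusted p = 7.81e-04).

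The 12 largest rises among genes with symbols held nitrate use, light response, cell wall degradation and surface proteins. The nitrate reductase gene nit-3 was at 58.0 and 72.3 CPM in set-2 H3G34R, against 1.45 and 2.97 CPM in H3G34R (4.87, SE 0.28, edgeR adjusted p = 5.08e-05). The nitrate transporter gene nit-10 was at 156 and 154 CPM, against 14.9 and 17.1 CPM (3.27, SE 0.12, edgeR adjusted p = 1.30e-05). Over wild type, in the authors' deposited tables, nit-3 and nit-10 stood at −0.62 and 0.56 in set-2 H3G34R, and both lay below it in H3G34R, at −3.35 and −2.55. The light-induced gene bli-3 was at 286 and 393 CPM in set-2 H3G34R, against 22.3 and 22.3 CPM in H3G34R (3.93, edgeR adjusted p = 2.54e-04), and npd-1 at 469 and 583 CPM, against 21.0 and 23.2 CPM (4.57, edgeR adjusted p = 4.81e-05).

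Among these rises app stood apart in size, at 2048 and 2123 CPM in set-2 H3G34R, against 3.95 and 5.64 CPM in H3G34R. It was also the only one of the 11 rises with deposited values that lay more than 3 log2 units from wild type in set-2 H3G34R, at 9.02, against 0.76 in H3G34R (the authors' deposited tables). The hydrophobin gene eas, which coats conidia, spread widely within each genotype, at 164 and 658 CPM in set-2 H3G34R and 7.23 and 19.7 CPM in H3G34R (4.93, SE 0.92, edgeR adjusted p = 0.00365). The glycoside hydrolase genes gh61-6, gh10-4 and gh35-1 rose by log2 values of 3.77, 3.42 and 3.23 (edgeR adjusted p from 9.97e-05 to 6.47e-04). The tyrosinase gene T (NCU00776), whose product oxidises tyrosine to melanin precursors, was at 19.99 and 23.6 CPM in set-2 H3G34R, against 2.89 and 1.43 CPM in H3G34R (3.32, edgeR adjusted p = 3.49e-04). The other 2, mig-10 and ecd-2, rose by 3.29 and 3.21 (edgeR adjusted p = 6.84e-05 and 2.65e-04).

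The set-2 ash1(Y888F) libraries share the set-2 label and give a second reading of these genes. For stk-35 they held 0 and 0 reads, and for stk-56, stk-54, stk-36, sms-2, sad-2 and parp they were at 0.678 and 1.04, 0.542 and 0.446, 5.69 and 6.53, 5.29 and 4.31, 0.407 and 0.594 and 11.1 and 12.3 CPM, each below both H3G34R libraries. The genes nit-3, npd-1, bli-3, mig-10 and ecd-2 were at 121 and 135, 666 and 1009, 247 and 516, 211 and 299.8 and 80.0 and 136 CPM there, each above both H3G34R libraries. The gene app was at 98.3 and 74.1 CPM there, above both H3G34R libraries and below both set-2 H3G34R libraries. For pho-4, pho-5, ndi-1, eas, nit-10, gh61-6 and gh35-1 the set-2 ash1(Y888F) libraries lay between those of set-2 H3G34R and H3G34R. For aod-1, T and pmg they overlapped those of H3G34R, at 395 and 259.7, 1.49 and 2.52 and 175.2 and 45.6 CPM. For gh10-4 they lay below those of H3G34R, at 0.271 and 1.34 CPM, against 1.83 and 1.72 CPM. These 2 libraries differ from H3G34R in ASH1 and in H3 as well, and both comparisons would share the H3G34R libraries.

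**Figure D2:**
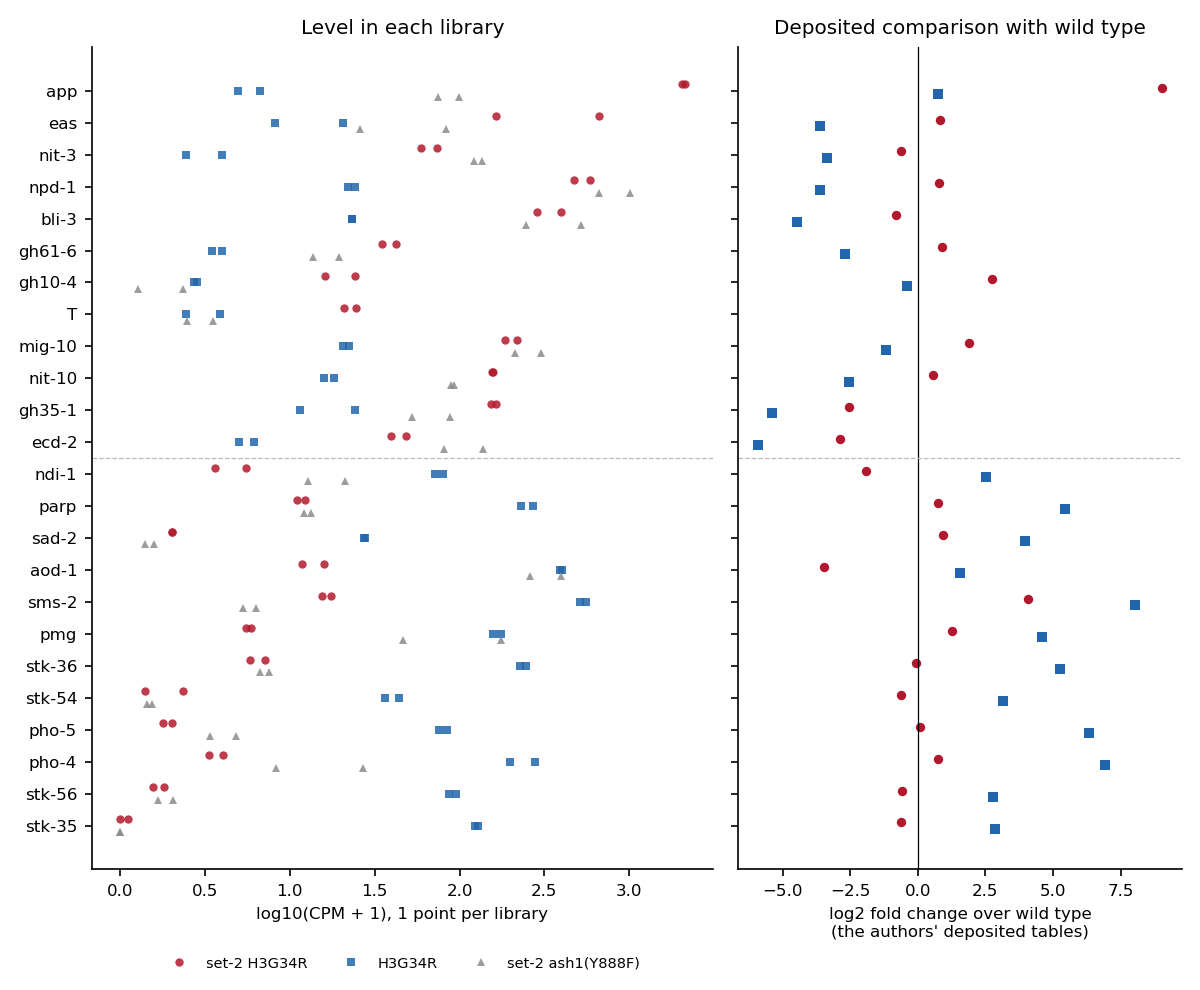
Left, the level of the 24 genes named by fold change in each library, as log10(CPM + 1), for set-2 H3G34R (red circles), H3G34R (blue squares) and set-2 ash1(Y888F) (grey triangles); right, log2 fold changes over wild type from the authors' deposited tables, with none shown for T. Above the dashed line the red points lie right of the blue ones and below it left of them, with stk-35 at 0 to 0.112 CPM in set-2 H3G34R and 122 to 128 CPM in H3G34R.

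Genes changed at least 2-fold were also ranked by difference in CPM. This ranking favours genes with many reads, so the high levels here follow from the choice. NCU07232 was at 11979.9 and 13062 CPM in set-2 H3G34R, against 211 and 307 CPM in H3G34R (5.595, SE 0.52, edgeR adjusted p = 2.25e-04). NCU06110 was at 16739 and 17315 CPM, against 6322 and 7658 CPM (1.28, edgeR adjusted p = 0.00366). Of the 8 genes that gained most CPM, 3 were clock-controlled genes by symbol. Here ccg-16 was at 10105 and 9527 CPM in set-2 H3G34R, against 2689.5 and 2379 CPM in H3G34R, ccg-14 at 3559.6 and 4746 CPM, against 641 and 679 CPM, and ccg-15 at 4369.6 and 4422 CPM, against 1255 and 1405 CPM. The other 3, NCU04314, mig-6 and NCU05498, rose by log2 values of 1.497, 2.37 and 1.63 (edgeR adjusted p from 5.56e-04 to 0.00541).

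Among genes changed at least 2-fold, those that lost most CPM included central enzymes of membrane energy, one-carbon and nitrogen metabolism. The plasma membrane proton pump gene pma-1 was at 2636 and 2503 CPM in set-2 H3G34R, against 4987 and 5392 CPM in H3G34R (−1.01, edgeR adjusted p = 9.43e-04). The gene for, which encodes serine hydroxymethyltransferase, was at 847 and 841 CPM, against 2859 and 3127 CPM (−1.83, edgeR adjusted p = 1.33e-04). The cytochrome c gene cyc-1 was at 259.7 and 210.3 CPM, against 1784 and 1830.2 CPM (−2.94, edgeR adjusted p = 5.601e-04). For each of these 3 genes both set-2 H3G34R libraries lay below both H3G34R libraries, which follows largely from their choice by difference in CPM. NADP-dependent glutamate dehydrogenase (am), hsp70-2, NCU05404 and NCU09326 fell, with log2 differences of −2.602, −1.19, −1.66 and −1.36 (edgeR adjusted p from 2.78e-04 to 0.00124). The largest ratio among them was that of NCU04697, at 3.23 and 2.36 CPM in set-2 H3G34R, against 1653 and 1941 CPM in H3G34R, with 1200.1 and 1755 CPM in set-2 ash1(Y888F).

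Some genes had reads in 1 genotype and almost none in the other. By a rule of at most 1 read over both libraries of a genotype and a mean of at least 20 CPM in the other, 6 genes were near 0 in set-2 H3G34R and 0 genes in H3G34R. Just outside the rule, NCU02932 had 3988 and 3397 reads in set-2 H3G34R, against 2 and 6 in H3G34R, so the count rests on where the limits lie. Besides stk-35 the 6 were NCU04706, NCU06888, NCU04710, NCU07212 and NCU07209, each with 0 reads in both set-2 H3G34R libraries. In H3G34R, NCU04710 had 237 and 216 reads, NCU07212 176 and 247 reads, and NCU07209 159 and 259 reads. With a floor of 3 reads per library these genes were at least 68-fold, 63.5-fold and 62.7-fold lower in set-2 H3G34R, and NCU04706 and NCU06888 at least 284-fold and 278-fold lower. In set-2 ash1(Y888F) the 5 genes stood at 0 to 0.678 CPM. In the authors' deposited tables NCU04710, NCU07212 and NCU07209 stood −1.28, −1.41 and −0.65 over wild type in set-2 H3G34R, and 2.93, 2.86 and 4.08 in H3G34R.

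Gene groups formed by symbol moved in both directions, and the background for reading their counts is 30.7% higher and 31.1% lower genes with a median log2 of −0.01. That background is of the main fit. Calls over all genes were fewer too with any 1 of the 4 libraries compared left out. The vacuolar ATPase, the proton pump that acidifies the vacuole, had all 14 tested members higher, with a median of 0.78. Its member vma-16 was at 149 and 138 CPM in set-2 H3G34R, against 57.0 and 54.6 CPM in H3G34R (1.36, SE 0.11, edgeR adjusted p = 1.32e-04), and vma-7 at 107 and 113 CPM, against 46.3 and 50.9 CPM. All 14 had groups of libraries that did not overlap, against 42.3% of all tested genes in that direction. Fewer of the 14 passed without H3G34R replicate 1. In the authors' deposited tables the list's median was 0.26 over wild type in set-2 H3G34R and −0.59 in H3G34R. Respiratory complex I had 24 of 29 genes higher and 0 lower, with a median of 0.71. Its member nuo14.8 was at 236 and 229 CPM in set-2 H3G34R, against 81.8 and 91.7 CPM in H3G34R (1.42, edgeR adjusted p = 2.54e-04). The median of this list over wild type was 0.11 in set-2 H3G34R and −0.48 in H3G34R in the authors' deposited tables.

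Organelle lists otherwise split. Of 20 peroxisome biogenesis genes 13 were higher and 1 lower (median 0.41), and the first count dropped to 4 without either H3G34R replicate and to 6 without either set-2 H3G34R replicate. The peroxisomal ubiquitin ligase gene pex10 was at 34.02 and 33.3 CPM in set-2 H3G34R, against 7.90 and 7.08 CPM in H3G34R (2.17, edgeR adjusted p = 1.11e-04), and pex11, which acts in peroxisome division, at 91.0 and 96.9 CPM, against 35.2 and 43.9 CPM. The exception was pex3, a membrane protein needed to form peroxisomes, which fell by 1.13 (edgeR adjusted p = 0.00213). Of 18 mitochondrial import genes 15 were lower and 0 higher (median −0.72). Here tim44, which tethers the import motor to the inner membrane, was at 46.2 and 40.2 CPM in set-2 H3G34R, against 169 and 161 CPM in H3G34R (−1.93, SE 0.16, edgeR adjusted p = 1.52e-04), and tim54 at 27.4 and 24.6 CPM, against 84.4 and 89.6 CPM. The median of the import list in the authors' deposited tables was 0.26 over wild type in set-2 H3G34R and 1.501 in H3G34R.

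More genes of amino acid and nucleotide synthesis were lower than higher. Of 59 genes of amino acid synthesis by symbol, 38 were lower and 3 higher (median −0.59), with 1 higher without set-2 H3G34R replicate 2. The 2 largest falls were in genes whose products act in mitochondria. The leu-5 gene, which encodes the mitochondrial leucyl-tRNA synthetase and not an enzyme of leucine synthesis, was at 13.6 and 12.2 CPM in set-2 H3G34R, against 89.6 and 84.3 CPM in H3G34R (−2.75, SE 0.14, edgeR adjusted p = 3.83e-05). The mitochondrial arginine carrier gene arg-13 was at 3.74 and 7.18 CPM, against 30.7 and 29.1 CPM (−2.46, edgeR adjusted p = 7.28e-04). Higher members included ilv-5 at 0.98 and arg-14, which encodes acetylglutamate synthase, at 0.94 (edgeR adjusted p = 0.0115 and 0.00852). All 8 tested purine and pyrimidine genes were called, 7 lower and 1 higher (median −0.93). Here pyr-4 was at 194 and 225 CPM in set-2 H3G34R, against 937 and 941 CPM in H3G34R, and pyr-3, which encodes the first enzymes of pyrimidine synthesis, at 254 and 229 CPM, against 949.8 and 1063 CPM, log2 differences of −2.17 and −2.06 (edgeR adjusted p = 1.05e-04 and 2.02e-04). The adenylosuccinate lyase gene ad-4 was the higher one, at 0.53 (edgeR adjusted p = 0.00667), a call lost without set-2 H3G34R replicate 1 or H3G34R replicate 1 (adjusted p up to 0.0635). Medians over wild type in the authors' deposited tables were 0.71 in set-2 H3G34R and 1.36 in H3G34R for amino acid synthesis, and 0.18 and 1.02 for the nucleotide list.

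In 3 chromatin and genome maintenance lists more genes were lower than higher. Of 25 tested DNA repair genes 17 were lower and 2 higher (median −0.69), with 11 lower without set-2 H3G34R replicate 2 and 11 without H3G34R replicate 1. The repair gene mus-40 fell by 1.38 (edgeR adjusted p = 5.21e-04), while mus-44 and mus-43 rose by 1.16 and 1.04 (edgeR adjusted p = 0.00142 and 0.00280). Of 12 chromatin remodelling ATPase genes 8 were lower and 2 higher (median −0.55; 1 higher without any 1 of the 4 libraries compared), with crf9-1 at 62.5 and 83.4 CPM in set-2 H3G34R, against 20.3 and 19.99 CPM in H3G34R (1.85), and crf1-1 at 43.7 and 42.5 CPM, against 98.6 and 92.2 CPM (−1.15). Of 17 histone methyltransferase and partner genes 8 were lower and 4 higher (median −0.24), with 5 lower without set-2 H3G34R replicate 2. Those furthest apart were set-6, at 38.8 and 33.7 CPM in set-2 H3G34R, against 5.21 and 4.40 CPM in H3G34R (2.91, edgeR adjusted p = 0.00125), set-9, which rose by 1.91 (edgeR adjusted p = 0.00140), and the chromatin assembly gene cac-3, which fell by 1.30 (edgeR adjusted p = 1.84e-04).

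Protein quality control showed no single direction. Of 30 proteasome genes 12 were higher and 1 lower (median 0.21), but 4 were higher without either H3G34R replicate and 5 without set-2 H3G34R replicate 1. The lower one was rpn-4, the counterpart of the Saccharomyces factor that switches on proteasome genes, at 62.0 and 88.9 CPM in set-2 H3G34R, against 262 and 299 CPM in H3G34R (−1.90, edgeR adjusted p = 3.01e-04). Of 10 heat shock genes 5 were lower and 1 higher (median −0.41), the rise lost without set-2 H3G34R replicate 1 or H3G34R replicate 1. Here the mitochondrial chaperonin gene hsp60 fell by 2.34 and hsp70-5 by 2.20 (edgeR adjusted p = 3.81e-04 and 1.14e-04), while hsp30 rose by 0.70 (edgeR adjusted p = 0.0171). None of the 7 genes with cytosolic ribosomal protein symbols passed (median −0.23), and 3 were lower when only the 4 libraries compared were fitted or either set-2 ash1(Y888F) replicate was left out.

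Surface, secreted and signalling genes moved both ways. Of 72 tested glycoside hydrolase genes 31 were higher and 21 lower (median 0.44), with gh18-1 at 0.606 and 0.337 CPM in set-2 H3G34R, against 17.3 and 17.0 CPM in H3G34R (−5.13, edgeR adjusted p = 1.503e-04), and the cellobiohydrolase gene gh6-1 at 0 and 0.449 CPM, against 6.75 and 5.26 CPM (−4.73, edgeR adjusted p = 0.00117). Of 17 cell wall protein genes 4 were higher and 5 lower, among them ncw-1 at 1597 and 1692 CPM, against 353 and 385 CPM, and ncw-2 at 194 and 199 CPM, against 1210.2 and 1043 CPM. These 2 genes moved in opposite directions, by 2.16 and −2.52 (edgeR adjusted p = 8.70e-05 and 3.28e-04). Of 10 chitin and glucan genes 5 were higher and 0 lower (median 0.11), with 3 higher by DESeq2, 2 higher without set-2 H3G34R replicate 1 and 1 higher without any 1 of the other 3 libraries compared, and 2 were lower when only the 4 libraries compared were fitted or either set-2 ash1(Y888F) replicate was left out. The wall-remodelling gene gel-3 was at 2336 and 2920.1 CPM in set-2 H3G34R, against 749 and 932 CPM in H3G34R (1.64). Of 52 tested stk kinases 13 were higher and 19 lower (median −0.19), and 5 to 7 were higher without any 1 of the 4 libraries compared.

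Hyphal fusion genes were higher for 7 and lower for 2 of 15 (median 0.34), with 4 higher without H3G34R replicate 2 and 1 lower without any 1 of the 4 libraries compared. The fusion genes ham-7, which encodes a cell surface protein, and ham-8 both rose, ham-7 at 408 and 490.2 CPM in set-2 H3G34R, against 104 and 100.8 CPM in H3G34R, and ham-8 at 282 and 331 CPM, against 85.5 and 77.4 CPM (log2 differences 2.13 and 1.91, edgeR adjusted p = 5.98e-05 and 9.27e-05). Transcription factor genes of the ada, col and related symbols were higher for 8 and lower for 8 of 28 (4 lower without set-2 H3G34R replicate 1), led by col-21 at 2.11 and col-22 at −2.25 (edgeR adjusted p = 3.60e-04 and 2.62e-04). Of 6 catalase and superoxide dismutase genes 4 were higher and 1 lower (median 1.19). With either set-2 H3G34R replicate or H3G34R replicate 1 left out 1 was higher. The catalase gene cat-3 was at 662 and 546 CPM in set-2 H3G34R, against 122 and 296 CPM in H3G34R. Of 6 polyketide synthase genes 3 were higher and 0 lower, with 1 higher without set-2 H3G34R replicate 2 or H3G34R replicate 2, and 1 lower in the fit of the 4 libraries compared or without either set-2 ash1(Y888F) replicate. With reads of both strands pks-6 and pks-2, at 2.80 and 2.40 on the sense strand, lost their calls (edgeR adjusted p = 0.971 and 0.206). Clock-controlled genes were higher for 4 and lower for 3 of 9, and 5 were lower without set-2 ash1(Y888F) replicate 2. In each list with 0 calls in a direction by edgeR, 0 genes also passed that way at an unadjusted p under 0.05, and DESeq2 called 1 chitin and glucan gene lower and none in the other lists. Against a minimum of 1.5-fold the calls were fewer, at 1533 higher and 1546 lower of all 8561 tested genes. Higher were then 7 of 14 vacuolar ATPase, 11 of 29 complex I, 3 of 20 peroxisome, 1 of 52 stk kinase and 0 of 30 proteasome genes. Lower were 7 of 18 mitochondrial import, 22 of 59 amino acid synthesis and 10 of 25 DNA repair genes.

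**Figure D3:**
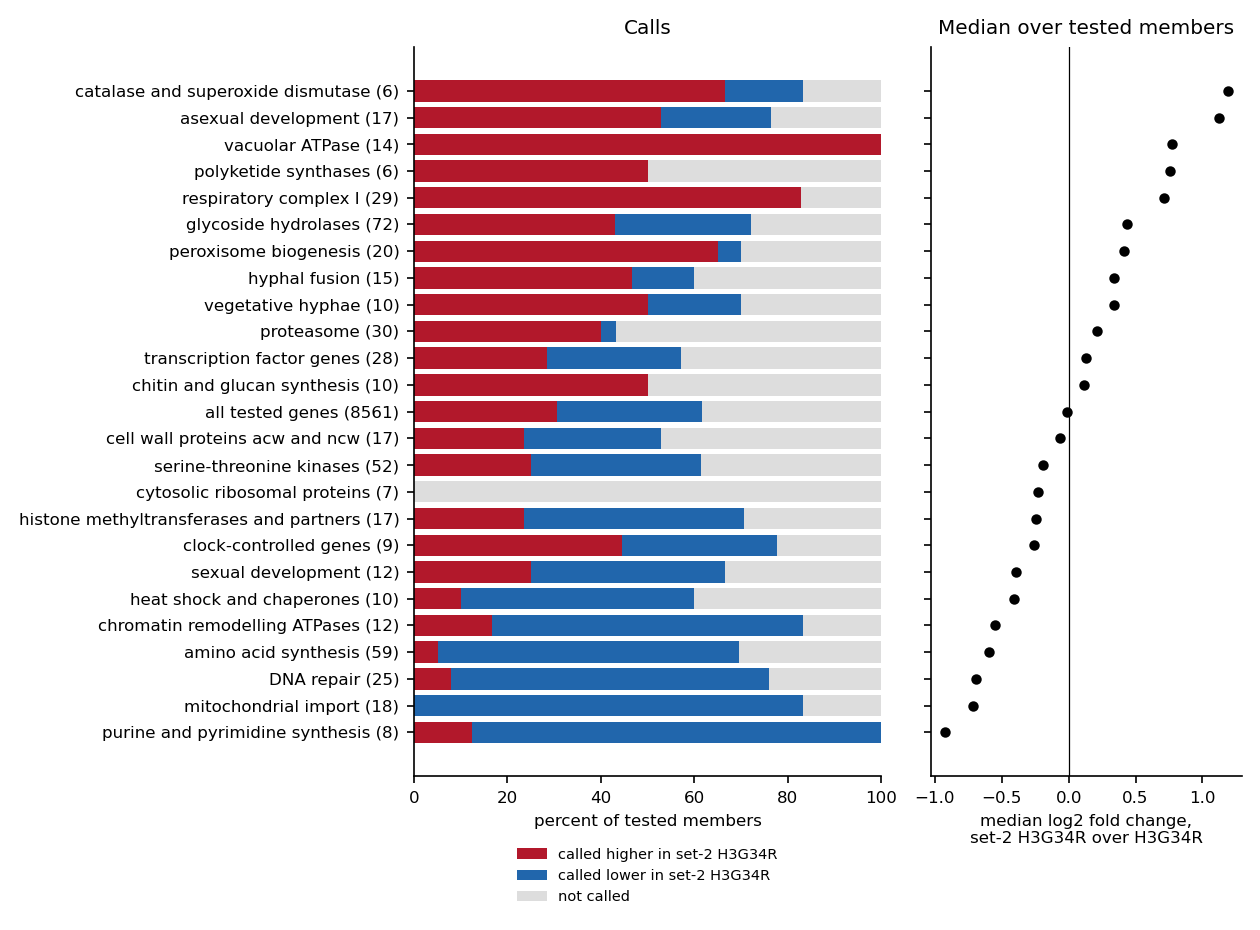
For 24 gene lists formed by symbol and for all tested genes, ordered by median, the left panel gives the percent of tested members called higher (red), lower (blue) or not called (grey) in set-2 H3G34R against H3G34R, with the number tested in brackets, and the right panel the median log2 fold change. The vacuolar ATPase bar is wholly red and the mitochondrial import bar 83.3% blue, against 30.7% and 31.1% over all tested genes.

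Markers of developmental stage moved with the genotype and are given with their whole lists. Summed CPM of 17 asexual development markers were 5385 and 7627 in set-2 H3G34R, against 2493 and 3025 in H3G34R, with 9 members higher and 4 lower (median 1.12; 2 lower without set-2 H3G34R replicate 1). This difference rests on ccg-14, and without it the sums overlapped, at 1825 and 2881 in set-2 H3G34R, against 1853 and 2346 in H3G34R. Of 12 tested sexual development markers 3 were higher and 5 lower (median −0.40), and the summed CPM of all 13 were 545 and 602, against 348 and 370.3 in H3G34R. The higher sum rests on asd-1, and without it the sums were lower in set-2 H3G34R, at 149.9 and 168, against 306 and 310.3 in H3G34R. With any 1 of the 4 libraries compared left out, 1 of these was higher, and 3 were lower without H3G34R replicate 2. Summed CPM of 10 vegetative hyphal markers were 31481 and 30996 in set-2 H3G34R, against 35958 and 38622 in H3G34R, with 5 higher and 2 lower (median 0.34). Without tef-1 these sums overlapped as well, at 16099 and 16687 in set-2 H3G34R, against 15813 and 17702 in H3G34R. Without any 1 of the 4 libraries compared, 1 to 3 of these were higher. In bulk RNA, more or fewer cells of a stage and more or less RNA per cell cannot be told apart. No marker but fmf-1 was at 0 in any of these libraries.

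Single markers went different ways within each list. The carotenoid gene al-2 was at 188 and 239 CPM in set-2 H3G34R, against 29.6 and 33.4 CPM in H3G34R (2.76, edgeR adjusted p = 1.69e-04), while al-1, the next enzyme of the pathway, was at 11.4 and 33.0 CPM, against 45.5 and 56.5 CPM (−1.21, edgeR adjusted p = 0.0430), a call lost without 3 of the 4 libraries compared in turn. The ascus gene asd-1 was at 395 and 434 CPM, against 41.9 and 60.0 CPM, the pheromone gene ccg-4 at 5.15 and 5.72 CPM, against 88.0 and 89.0 CPM, and the perithecial pigment gene per-1 at 10.8 and 7.63 CPM, against 55.4 and 54.5 CPM. Among vegetative markers hex-1, which forms the septal plugs called Woronin bodies, was at 4435 and 4867 CPM in set-2 H3G34R, against 3329 and 3122 CPM in H3G34R (0.53, edgeR adjusted p = 0.0197), and tef-1, a translation elongation factor gene, at 15382 and 14309 CPM, against 20146 and 20920.1 CPM (−0.47, edgeR adjusted p = 0.0460). Both calls were lost without any 1 of the 4 libraries compared, at adjusted p up to 0.128 for hex-1 and up to 0.270 for tef-1, whose call upper quartile scaling removed too. The part of culture stage in the other results was not tested.

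Large changes were more frequent toward the chromosome ends. Neurospora has 7 chromosomes, called linkage groups, and genes were ranked from the nearer end of each in the reference order. Within ranks 26 to 50, 12.5% of tested genes were at least 4-fold higher and 11.8% at least 4-fold lower in set-2 H3G34R, and within ranks 51 to 100 the shares were 11.9% and 12.4%. Beyond rank 200 they were 5.78% and 5.63%. The 25 genes nearest each end had 10.2% in each direction. Calls of any size did not follow this order, with 32.4%, 32.1%, 33.3%, 28.9% and 30.6% higher in the 5 classes of rank, moving inward. Genes nearer the ends were also lower in level, with a median of 23.8 CPM at ranks 51 to 100 and 40.3 CPM beyond rank 200. With only genes above the lowest 2 deciles of level, a choice made after seeing the data, the at least 4-fold higher shares were 12.2% at ranks 26 to 50 and 5.01% beyond rank 200, and the at least 4-fold lower shares 7.65% and 3.10%. By linkage group, at least 4-fold higher genes took from 5.29% (V) to 9.86% (VI), and at least 4-fold lower genes from 5.16% (I) to 8.75% (V).

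Neighbouring genes resembled each other in their change. Across 7727 pairs of adjacent tested genes, the log2 fold changes correlated with Pearson's r = 0.272 and Spearman's rho = 0.156, over genes that are not independent replicates and share the same 4 libraries. At a spacing of 2, 5 and 10 genes r was 0.170, 0.108 and 0.071, and at a spacing of 50 genes it was 0.00562. Overlapping transcripts on the same strand could share reads, and this was not tested.

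**Figure D4:**
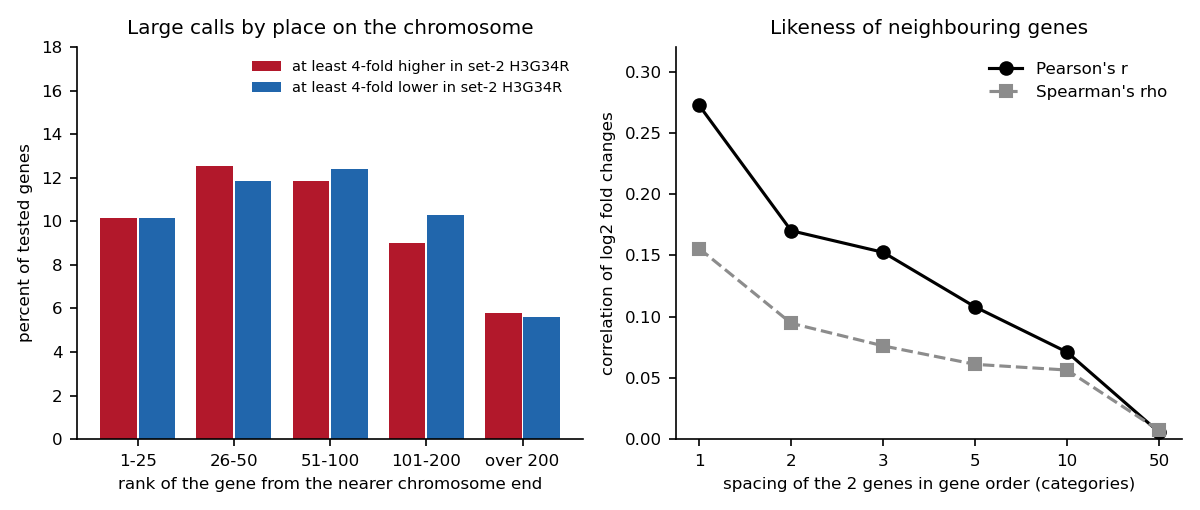
Left, the percent of tested genes called at least 4-fold higher (red) or lower (blue) in set-2 H3G34R, by rank of the gene from the nearer chromosome end, from 12.5% and 11.8% at ranks 26 to 50 to 5.78% and 5.63% beyond rank 200. Right, the correlation over gene pairs of log2 fold changes at a given spacing in gene order (spacings drawn as categories), with Pearson's r falling to 0.00562 at 50 genes.

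Runs of at least 4 adjacent genes, all called in 1 direction and at least 2-fold, numbered 24 in the higher direction (115 genes) and 24 in the lower (111 genes). Within 100 genes of a chromosome end lay 5 of the higher and 6 of the lower runs, 22.9% of all 48, and 13.3% of tested genes. The longest held 8 genes each way. On linkage group I, all 8 genes from NCU02932 to NCU02926 were higher, by log2 values from 2.15 to 9.94. Of these, NCU02927, NCU16468 and NCU02926 lost their calls with 1 library or another left out. Within the run NCU02929 was at 17.8 and 23.1 CPM in set-2 H3G34R, against 0.868 and 0.191 CPM in H3G34R, and NCU02928 at 15.6 and 26.8 CPM, against 1.64 and 0.670 CPM. These 2 genes were, in the authors' deposited tables, above wild type in set-2 H3G34R, at 1.26 and 1.51, and below it in H3G34R, at −2.10 and −1.55. Others differed, and NCU02932, the largest rise of the run (9.94), was below wild type in both genotypes in the authors' deposited tables, at −1.35 in set-2 H3G34R and −10.86 in H3G34R.

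The 8-gene run on linkage group II ended in NCU09775, at 49.4 and 64.1 CPM in set-2 H3G34R, against 0.289 and 0.478 CPM in H3G34R (7.15, edgeR adjusted p = 4.91e-04), with a median log2 of 2.46 over its 8 genes, of which NCU16597 and NCU09358 lost their calls with 1 library or another left out. In a run of 7 genes on linkage group IV, NCU16805 was at 368 and 289.9 CPM, against 15.1 and 20.7 CPM, and NCU04490 at 47.9 and 48.3 CPM, against 1.25 and 1.63 CPM (4.20 and 5.05). Both were above wild type in both genotypes in the authors' deposited tables, NCU16805 at 7.28 in set-2 H3G34R and 3.28 in H3G34R. In a run of 7 genes on linkage group VI, NCU05126 was at 978 and 587 CPM in set-2 H3G34R, against 3.57 and 5.84 CPM in H3G34R (7.37, edgeR adjusted p = 1.87e-04). In the same run NCU17138 had 79 and 58 reads, against 0 and 0, and was at least 25.1-fold higher, while NCU05127 lost its call without 3 of the 4 libraries compared in turn.

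The 8-gene lower run lay on linkage group II, from NCU05463 to NCU16539, with log2 values from −6.41 to −1.76. NCU05467 was at 7.37 and 9.20 CPM in set-2 H3G34R, against 413 and 435 CPM in H3G34R, NCU05469 at 9.29 and 6.62 CPM, against 250.4 and 254 CPM, and NCU05472 at 5.25 and 5.50 CPM, against 204 and 221 CPM. Every alternative of scaling, filter, test and samples kept the calls of these 3 genes, while NCU05466 (log2 −1.76) lost its call in 4 of them. In set-2 ash1(Y888F) NCU05467, NCU05469 and NCU05472 stood at 1.90 and 1.49, 1.49 and 0.891 and 1.36 and 1.93 CPM. At rank 31 from an end of linkage group V, parp stood in a run of 6 lower genes with NCU16913 (−6.89), NCU08853 (−7.35) and mus-18 (−1.14), an endonuclease gene of ultraviolet damage repair. NCU08853 stood at 0.11 over wild type in set-2 H3G34R and at 7.37 in H3G34R in the authors' deposited tables.

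On linkage group VI, a run of 6 lower genes began with NCU12069, at 0.202 and 0 CPM in set-2 H3G34R, against 66.1 and 46.6 CPM in H3G34R. The 4 genes after it, NCU07106 to NCU07103, had 0 reads in both set-2 H3G34R libraries and in both set-2 ash1(Y888F) libraries. In H3G34R, NCU07105 had 96 and 82 reads and NCU07104 73 and 44 reads, so these genes were at least 26.7-fold and 17.6-fold lower in set-2 H3G34R. In the authors' deposited tables NCU07105 stood −0.20 over wild type in set-2 H3G34R and 5.90 in H3G34R. A run of 6 on linkage group IV, NCU07901 to NCU07896, had smaller values, from −2.55 to −1.37. The kinase genes stk-56 and stk-35 lay in 1 run of 5 lower genes, and NCU04706 and NCU06888 were each in a run of 4.

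Antisense reads, from the strand opposite to each gene, were a further readout of the same libraries. Of 4068 genes with enough antisense reads, 27.5% were higher and 15.3% lower in set-2 H3G34R (edgeR, library sizes of the sense counts). This lean depends on the scaling, since 64.2% of calls were higher here and 47.5% with library sizes taken from the antisense reads themselves (878 higher and 970 lower), and the median over genes moved between 0.20 and −0.13. No lean is therefore reported for antisense transcription as a whole. NCU05311 had 1226 and 1135 antisense reads in set-2 H3G34R, against 1 and 1 in H3G34R, with a ratio of 1307 (95% interval 361 to 10795, counting error only), and 49 and 28 in set-2 ash1(Y888F). Its sense level was 36.1 and 42.3 CPM in set-2 H3G34R, against 25.9 and 30.8 CPM in H3G34R (0.47). So a large change on 1 strand stood beside a small one on the other. NCU01840 and NCU01329 had 102 and 65, and 44 and 42, antisense reads in set-2 H3G34R and 0 in both H3G34R libraries, at least 30.5-fold and 15.9-fold higher.

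Other antisense changes lay beside genes whose own sense reads changed the same way. NCU04532 had 4087 and 3706 antisense reads in set-2 H3G34R, against 9 and 17 in H3G34R, and the gene before it is app, with mean sense levels of 2085 CPM in set-2 H3G34R and 4.80 CPM in H3G34R. NCU02963 had 0 and 4 antisense reads, against 464 and 491, beside NCU02964, at 0.432 CPM in set-2 H3G34R and 74.0 CPM in H3G34R. The glutathione transferase gene gst-4 had 4 and 1, against 308 and 380, beside NCU06938, at 3.03 CPM in set-2 H3G34R and 347 CPM in H3G34R. NCU08849 had 0 and 0 antisense reads, against 54 and 36, and NCU04697 had 1 and 0, against 82 and 92, with sense reads of 32 and 21, against 17151 and 20291. Whether transcripts of neighbours run into these genes, or a small part of sense reads is counted on the other strand, was not tested.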

How the data were processed

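Poly-A RNA was measured in 6 libraries of 3 genotypes, 2 each. The authors deposited raw read counts per gene and strand, and the submitters' processing notes name STAR 2.6.0. Genome build and annotation: not given in the sources used here. Per the labels' protocols the library kit was stranded, and of the 2 single-strand columns the fourth, with most reads in genes, was taken as sense. The authors also deposited comparisons with wild type, for which the submitters' processing notes name DESeq2 1.18.1. Read from their values, since they have no header, these deposited tables hold a mean normalised signal, a log2 fold change over wild type with its error, the Wald score of that change, and raw and adjusted p-values. The strand column behind them was not established here. Wild-type levels derived from the 2 deposited tables used differed by a median of 0.00122 (absolute log2) over 7149 genes, so both rest on the same wild-type libraries.

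The sense counts of all 6 libraries went into 1 edgeR 4.0.16 fit in R 4.3.3 (filterByExpr by genotype, TMM, glmQLFit, glmQLFTest, no covariate), with Benjamini-Hochberg adjustment at 0.05 over 8561 of 9730 genes. The 4 lines of reads outside genes, 8.01% to 15.3% of reads, stayed out of library sizes and tests. Antisense counts used the sense library sizes. Alternatives were DESeq2 1.42.0, other scalings, no filter, counts of both strands, only 4 libraries, a minimum of 1.5-fold, and leaving out each library. Replicates 1 and 2 are N5247 and N5248 for H3G34R and the libraries so numbered for set-2 H3G34R.

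Symbols and gene order came from RefSeq assembly NC12, in which 9729 loci matched; sequences, product names and coordinates were not used here. Lists were formed by symbol, and peroxisome biogenesis and chromatin remodelling were added after the symbols had been seen. Named genes were the label genes, the 12 with symbols of largest fold change each way (mean of at least 10 CPM), the 8 of largest CPM difference each way (at least 2-fold), genes with at most 1 read in 1 genotype and at least 20 CPM in the other, up to 2 per list and direction, the 3 longest runs each way with ties, and 4 antisense genes each way (at least 2 CPM). Not all genes so named are described. Comparisons, members and lists were chosen with earlier results of these data known. With no molecular identifiers on the reads, intervals and the floor of 3 reads per library express counting error alone.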

Additional observations from a re-analysis of the deposited data

How the results depend on the processing

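Against a minimum of 1.5-fold the calls numbered 3079, 1533 higher and 1546 lower. The other alternatives kept the counts of calls, of at least 4-fold calls and of antisense calls higher within 1.5 times of the reported ones. Antisense calls lower numbered 970 with library sizes taken from antisense reads, and 402 to 690 with 1 library left out. With 1 library left out, the log2 difference of set-2 ranged from −0.042 (without H3G34R replicate 2) to 0.32, and that of hH3 from −0.53 to −0.44. Besides set-2, the sense values that turned sign were those of NCU01329 (0.61 with both strands) and NCU02963 (−0.47 with both strands, and −0.073 to 0.39 with 1 library left out), and none of the 3 was called. The minimum of 1.5-fold is left out of the next count. Of 173 called genes among 178 named, 140 were called with the same sign in every other alternative that tested them. Calls were lost most often without set-2 H3G34R replicate 1. Of all called genes, 5272 were also called with the same sign by the fit of the 4 libraries compared, and 4807 by DESeq2. With 1 library left out, the remaining one of a pair is assumed to vary like the other genotypes.

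Depth limits the lowest genes, where a count of 0 allows 3 reads per library. Only 2 libraries a side, 1 strain for set-2 H3G34R, set-2 reads at the level of H3G34R, and mapping shares that differ between the genotypes limit what can be assigned to the set-2 label. No paired analysis was possible because the H3G34R libraries carry strain names and no replicate numbers shared with set-2 H3G34R. Motifs in promoters and lists by product name were not analysed here.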

Other observations

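Of the runs of neighbours not described above, 4 that held genes with known symbols were picked after their values were seen. The vitamin B6 synthesis genes pdx-1 and pdx-2 lay in a run of 4 lower genes on linkage group IV whose log2 values spanned −3.52 to −2.37. The lysine gene lys-6 closed a run of 4 lower genes, from −2.38 to −1.74. The repair gene mus-40 lay in a run of 5 lower genes, from −8.66 to −1.02, and the wall protein gene ncw-1 began a run of 5 higher genes, from 1.31 to 5.09. The run nearest to a chromosome end, at rank 7 on linkage group V, held 5 lower genes from NCU17053 to NCU07149, with log2 values from −7.95 to −2.35.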
